A study of Mus musculus with 4 samples.

Results

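The genes for stathmin and for 9 tubulin isotypes were followed in ILC2s (group 2 innate lymphoid cells) from the airways of mice given IL-33 or chronic house dust mite (HDM). Rows were selected by gene symbol, which gave 10 genes of the 24537 in each table: *Stmn1*, 4 alpha-tubulin genes (*Tuba1a*, *Tuba1b*, *Tuba1c* and *Tuba4a*), 4 beta-tubulin genes (*Tubb2a*, *Tubb4b*, *Tubb5* and *Tubb6*) and the gamma-tubulin gene *Tubg1*. They were picked with the difference between IL-33 and chronic HDM already known, so that difference is described here for each of them and not tested.

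ILC2s are lymphocytes without antigen receptors that make type 2 cytokines in allergic airways. IL-33 is an alarmin cytokine that activates them directly, and HDM is an extract of house dust mites. There were 2 libraries from mice given 0.5 µg IL-33 in 3 doses on alternate days, and 2 from mice given 25 µg HDM on 3 days a week for 5 weeks, all sorted 1 day after the final challenge. Cells were taken from BAL (bronchoalveolar lavage) fluid and sorted as lineage-negative, Sca-1+ and YFP+, with antibodies to CD11b, CD11c and Gr-1 among those for lineage. The mice were GATIR reporters on a C57BL/6 background, about 8 to 16 weeks old, in which YFP is made together with GATA3 from the *Gata3* gene, so the sort marked cells that transcribe *Gata3*. The labels give the IL-33 mice as Gata3-YFP/YFP and CD25High, and the HDM mice as Gata3-YFP/WT and CD25Low. The methods of the study name only homozygous mice and no CD25 gate for this sort, so stimulus, dosing, reporter copies and a possible CD25 gate cannot be told apart. The series text calls the libraries of a group biological replicates without saying how many mice each holds, so the p-values given here cover no more than the spread among these libraries, and that spread may be technical.

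Microtubules are hollow polymers of alpha- and beta-tubulin dimers. Gamma-tubulin starts new polymers from ring complexes, and stathmin binds free dimers and promotes the disassembly of polymers, an activity that is switched off by phosphorylation when cells enter mitosis. Mammals have several alpha and beta isotypes from separate genes, which are nearly alike in sequence and differ most at the acidic tail. Lymphocytes rebuild their microtubules into a spindle each time they divide, and use them to polarise secretion and to migrate.

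Levels are given as RPKM, reads per kilobase of exon scaled to the depth of the library, so genes can be compared per length. The libraries held 10696039 to 12054785 reads in genes with IL-33 and 15650709 to 16092309 with chronic HDM. Of these, 45S ribosomal RNA took 3.45% to 4.95% with IL-33 and 17.4% to 25.4% with chronic HDM. All 14 listed ILC2 markers had reads in each library, with sums of 4710 to 4876 RPKM with IL-33 and 3790 to 4081 RPKM with chronic HDM, but 6 were higher in both IL-33 libraries and 5 in both chronic HDM libraries. *Gata3* itself, whose reporter marked the sorted cells, was at 14.9 and 18.9 RPKM with IL-33 and at 216 and 195 RPKM with chronic HDM. Among 12 macrophage and monocyte markers, 8 had reads in each IL-33 library and 4 and 11 in the chronic HDM libraries, and their sum was 87.8 and 24.0 RPKM with IL-33 and 948 and 2353 RPKM with chronic HDM. Most of that was *Lyz2* (70.2 and 17.2 RPKM with IL-33 against 933 and 2259 RPKM), whereas *Fcgr1* had no reads anywhere, and the part of such cells in the results was not tested. Across genes, which are not independent replicates, log2 values correlated at r = 0.975 between the IL-33 libraries and at r = 0.825 between the chronic HDM libraries. In bulk RNA, fewer cells of a kind and less RNA per cell cannot be told apart.

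The isotypes are so alike that part of their reads may belong to more than 1 gene, and the ends of the coding sequences show how far this goes. The last 30 coding bases of an alpha gene encode the acidic tail with its stop codon, and are shown for 3 of the 4 (GRCm38, the mm10 build). *Tuba1b* is shown in lower case, and capitals in the other sequences mark bases that differ from *Tuba1b* at the same distance from the stop codon.
Tuba1b (chr15:98931582-98931611, minus strand): gagggggaggaagaaggagaggagtactaa
Tuba1c (chr15:99037980-99038009, plus strand): gaAggAgaCgaTgaGggTgaggaAtaTtaa
Tuba4a (chr1:75215622-75215651, minus strand): TaTgAggaCgaGgaTgAGgGAgaAGaGtaG

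*Tuba1c* differs from *Tuba1b* at 8 of these bases and *Tuba4a* at 14, while *Tuba1a*, which is not shown, differs at 1. Among the beta genes, the same comparison with *Tubb5* gives 13 bases for *Tubb4b* and 10 for *Tubb2a*.
Tubb5 (chr17:35834982-35835011, minus strand): ttcggagaggaggcagaagaggaggcctaa
Tubb4b (chr2:25222308-25222337, minus strand): GAGgAGgaggCTgAGgaGgaggTggcTtaG
Tubb2a (chr13:34074468-34074497, minus strand): GAGgAGgaggaggGTgaagaTgaggcTtGa

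Over the whole coding sequence, *Tuba1a* and *Tuba1b* were 98.3% identical, *Tuba1b* and *Tuba1c* 97.9%, and *Tuba1a* and *Tuba1c* 97.1%. These 3 genes lie together on chromosome 15, with 15456 bases between *Tuba1b* and *Tuba1a* and 76389 between *Tuba1a* and *Tuba1c*. *Tuba4a*, on chromosome 1, was 84.7% to 85.2% identical to them, and the 4 beta genes, all on different chromosomes, were 80.2% to 84.6% identical to each other. For *Stmn1*, on the plus strand of chromosome 4, the coding sequence ends as follows, with the stop codon in capitals.
Stmn1 (chr4:134473374-134473403, plus strand): gaccccgcggatgagactgaggctgacTAA

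Reads were 51 bases long, and each transcript was therefore cut into all its 51-base windows and searched for in the GENCODE M21 transcripts of every other gene. All windows of *Tubb6* and 99.96% of those of *Tubb5* were found in no other gene, as were 84.7% for *Tubg1*, 70.0% for *Tuba4a*, 63.8% for *Stmn1*, 50.5% for *Tubb2a* and 45.2% for *Tubb4b*. For the alpha genes on chromosome 15 the share was 39.0% (*Tuba1c*), 17.5% (*Tuba1a*) and 9.13% (*Tuba1b*), and 66.1% of the *Tuba1b* windows also occur in *Tuba1c*. Most windows that *Stmn1* shares lie in *Gm11223*, a processed pseudogene (34.6% of its windows), those of *Tubg1* in *Tubg2* (15.2%), those of *Tubb2a* in *Tubb2b* (45.6%), those of *Tubb4b* in *Tubb4b-ps1* (43.2%) and those of *Tuba4a* in the overlapping gene *Stk16* (28.6%). Values of *Tubb5* and *Tubb6* thus rest on reads that fit 1 gene, while those of *Tuba1a*, *Tuba1b* and *Tuba1c* are uncertain as single genes and are also given as a sum.

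**Figure D1:**
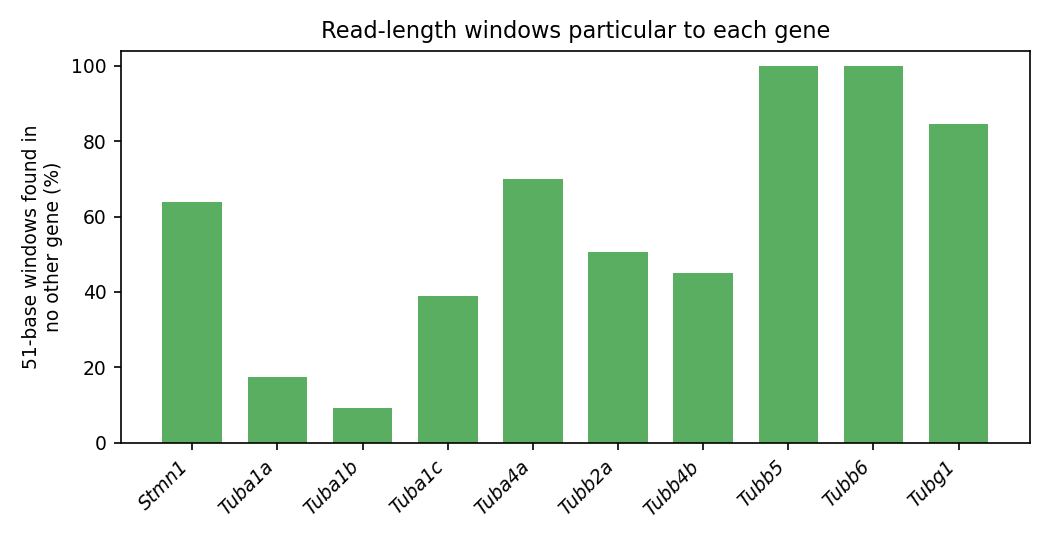
Percent of the 51-base windows of each gene's transcript (y axis) that occur in no other gene's transcript, for the 10 genes (x axis). *Tubb5* and *Tubb6* stand at 99.96% and 100%, and *Tuba1b* is lowest at 9.13%.

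*Stmn1* (chr4:134468320-134473843) differed most between the groups among the 10 genes. It was at 351 and 338 RPKM in the IL-33 libraries and at 15.2 and 15.1 RPKM in the chronic HDM libraries. The groups were thus far apart and the libraries within each nearly equal. Group means were 344 ± 8.86 and 15.1 ± 0.0651 RPKM (SD, n = 2), a fold of 22.8 that ranged from 22.3 to 23.3 over the 4 pairings of an IL-33 with a chronic HDM library. These values rest on 4836 and 4181 reads with IL-33 and 307 and 292 reads with chronic HDM. On the log2(RPKM + 1) scale, which understates the change of low genes, the difference was 4.42, rank 53 of the 9523 genes that averaged 2 RPKM or more. In the IL-33 libraries *Stmn1* was above 98.0% and 98.2% of those genes in level, and in the chronic HDM libraries above 54.4% and 57.3%.

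Reads of 3 relatives of stathmin were looked for. *Stmn2*, *Stmn3* and *Stmn4*, which are known from neurons, had no reads in any library. *Stmn1* thus stood apart from these 3 genes.

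Among the alpha-tubulin genes, *Tuba1b* was the most abundant in every library. This widely used isotype was at 109.8 and 116 RPKM with IL-33 and at 55.2 and 49.5 RPKM with chronic HDM, 2.16-fold higher with IL-33 (1.99 to 2.35 over the library pairings). Its libraries did not overlap between the groups. *Tuba1c*, the least abundant of the 4, was at 13.8 and 21.2 RPKM with IL-33 and at 10.1 and 11.5 RPKM with chronic HDM. These also did not overlap, but the IL-33 libraries differed by 1.54-fold from each other, close to the 1.62-fold between the group means.

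*Tuba1a*, an isotype known for its role in the developing brain, was at 36.1 and 48.4 RPKM with IL-33 and at 40.2 and 34.6 RPKM with chronic HDM. *Tuba4a* encodes an alpha-tubulin whose coding sequence ends without the tyrosine codon of the others, and was at 52.9 and 39.4 RPKM with IL-33 and at 29.5 and 44.5 RPKM with chronic HDM. Both genes overlapped between the groups, and their small differences in log2(RPKM + 1), 0.16 for *Tuba1a* and 0.33 for *Tuba4a*, turned below 0 under quantile normalization (-0.25 and -0.11) and, for *Tuba1a*, also under median-of-ratios scaling and without 45S ribosomal RNA (-0.07 for each).

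The 4 alpha genes summed to 212 and 225 RPKM with IL-33 and to 135 and 140.1 RPKM with chronic HDM. Splitting of reads between *Tuba1a*, *Tuba1b* and *Tuba1c* changes this sum little, but many of their windows also occur in genes outside it. Of the *Tuba1b* windows, 61.3% occur in the non-coding gene *AC157548.1* and 53.4% in the processed pseudogene *Gm14150*. Whether reads shared with such genes were lost from the sum was not tested. The sum was 1.59-fold higher with IL-33 (1.52 to 1.67 over the pairings), and stayed higher under the other scalings at 1.35-fold (median of ratios), 1.15-fold (quantile) and 1.35-fold (without 45S ribosomal RNA), with no overlap in each.

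*Tubb5* and *Tubb6*, whose reads fit no other gene, were both higher with IL-33. *Tubb5* (chr17:35833920-35838301) encodes the main beta-tubulin of lymphoid and dividing cells and was the most abundant tubulin RNA in every library. It was at 333 and 363 RPKM with IL-33 and at 181 and 207 RPKM with chronic HDM, 1.79-fold higher with IL-33 (1.61 to 2.01). *Tubb6* (chromosome 18) encodes a widely expressed but usually minor beta-tubulin. At 152 and 157 RPKM with IL-33 and 31.8 and 24.3 RPKM with chronic HDM, it was 5.52-fold higher with IL-33 (4.78 to 6.48). Of the tubulins, *Tubb6* thus had the widest gap between groups, and it stood at place 3 among the 10 genes in both IL-33 libraries and at places 5 and 6 in the chronic HDM libraries.

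*Tubb4b*, a broadly expressed beta-tubulin, went the other way. It was at 75.7 and 75.8 RPKM with IL-33 and at 96.0 and 80.9 RPKM with chronic HDM. Its mean was 1.17-fold higher with chronic HDM, without overlap. This gap is small, as the chronic HDM libraries differed by 1.19-fold from each other, more than the group means did. The log2 difference of *Tubb4b* was -0.22, and lay between -0.45 and -0.74 under the 3 other scalings. *Tubb4b* was the single gene of the 10 that was lower in both IL-33 libraries, and 54.8% of its windows are shared with other genes, mostly processed pseudogenes.

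*Tubb2a*, an isotype abundant in neurons, was at 3.01 and 2.93 RPKM with IL-33 and at 0 and 12.4 RPKM with chronic HDM. Its reads numbered 63 and 55 with IL-33, none in chronic HDM replicate 1 and 364 in chronic HDM replicate 2, so the chronic HDM libraries lay on either side of both IL-33 libraries. Chronic HDM replicate 2 also had higher sums than replicate 1 of macrophage and monocyte markers (2353 against 948 RPKM) and of epithelial markers (76.0 against 25.7 RPKM). Most of that epithelial sum was *Scgb1a1* (64.6 against 0 RPKM), while *Epcam* (9.07 against 21.5 RPKM) and *Cdh1* (2.35 against 4.23 RPKM) were lower in replicate 2. The sums of eosinophil (46.1 against 63.3 RPKM) and neutrophil markers (6.46 against 14.1 RPKM) were also lower in replicate 2. The part of any of these cell types in the *Tubb2a* value was not tested. The log2 difference of *Tubb2a*, 0.12, turned below 0 under each of the other scalings (-0.06, -0.02 and -0.00), and no direction is given.

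**Figure D2:**
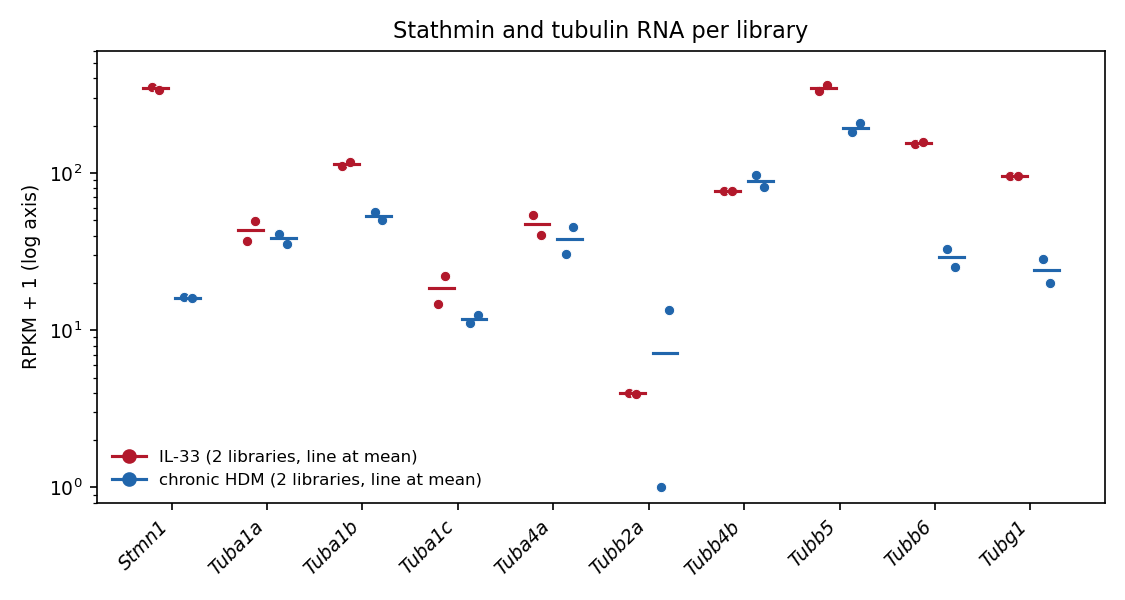
RPKM + 1 on a log axis for the 10 genes, with a point for each of the 2 IL-33 and 2 chronic HDM libraries and group means drawn as lines. *Stmn1* falls from 351 and 338 RPKM with IL-33 to 15.2 and 15.1 with chronic HDM, *Tubb4b* lies slightly higher with chronic HDM, and the *Tubb2a* libraries with chronic HDM are far apart (0 and 12.4 RPKM).

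*Tubg1* (chr11:101120131-101126419), the gamma-tubulin of the nucleating ring, was at 94.4 and 94.9 RPKM with IL-33 and at 27.5 and 19.0 RPKM with chronic HDM. It was 4.07-fold higher with IL-33 (3.44 to 4.99), with no overlap. Its near copy *Tubg2*, 29464 bases away, was at 0.649 and 2.03 RPKM with IL-33 and had no reads with chronic HDM, so *Tubg1* made up nearly all of the gamma-tubulin RNA. With IL-33 the level of *Tubg1* lay above *Tubb4b* in both libraries, and with chronic HDM far below it. *Tubb4b* has fewer windows of its own (45.2% against 84.7%), so the order with IL-33 depends on how shared reads were treated.

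The beta genes summed to 563 and 599 RPKM with IL-33 and to 309 and 324 RPKM with chronic HDM. The sum was 1.84-fold higher with IL-33 (1.74 to 1.94), and 1.56-fold (median of ratios), 1.25-fold (quantile) and 1.56-fold (without 45S ribosomal RNA) under the other scalings, with no overlap in each. The ratio of beta to alpha RNA, in which scaling between libraries cancels except under quantile normalization, was 2.65 and 2.66 with IL-33 and 2.29 and 2.31 with chronic HDM. Alpha and beta RNA thus stood in a similar proportion in all 4 libraries, with a small gap between the groups. The size of this ratio, and of percentages of the alpha and beta sum, depends on how reads that fit several genes were treated.

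Stathmin did not keep that proportion. *Stmn1* RNA stood at 45.2% and 41.0% of the summed alpha and beta RPKM with IL-33 and at 3.42% and 3.25% with chronic HDM, a 12.9-fold gap (12.0 to 13.9). *Tubg1* stood at 12.2% and 11.5% with IL-33 and at 6.19% and 4.10% with chronic HDM. Neither pair of groups overlapped. Together the 10 genes took 0.215% and 0.225% of all mapped reads with IL-33 and 0.0977% and 0.103% with chronic HDM.

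The make-up of the beta-tubulin RNA differed between the groups while its main isotype held its share. *Tubb5* was 59.0% and 60.6% of the 4 beta genes with IL-33 and 58.6% and 63.8% with chronic HDM, which overlap. *Tubb6* was 27.0% and 26.3% with IL-33 and 10.3% and 7.49% with chronic HDM. In its place stood *Tubb4b*, at 13.4% and 12.7% with IL-33 and 31.1% and 24.9% with chronic HDM. As deposited, *Tubb6* RNA thus exceeded *Tubb4b* RNA in both IL-33 libraries and was below it in both chronic HDM libraries. Only 45.2% of the *Tubb4b* windows are its own, so the order with IL-33 depends on how shared reads were treated.

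Among the alpha genes, *Tuba1b* made up 51.7% and 51.6% of the sum with IL-33 and 40.9% and 35.4% with chronic HDM. *Tuba1a* made up 17.0% and 21.5% with IL-33 and 29.8% and 24.7% with chronic HDM. Neither overlapped between the groups, but these are the genes with the fewest windows of their own. The shares of *Tuba4a* (24.9% and 17.5% against 21.9% and 31.7%) and *Tuba1c* (6.47% and 9.40% against 7.51% and 8.19%) overlapped.

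**Figure D3:**
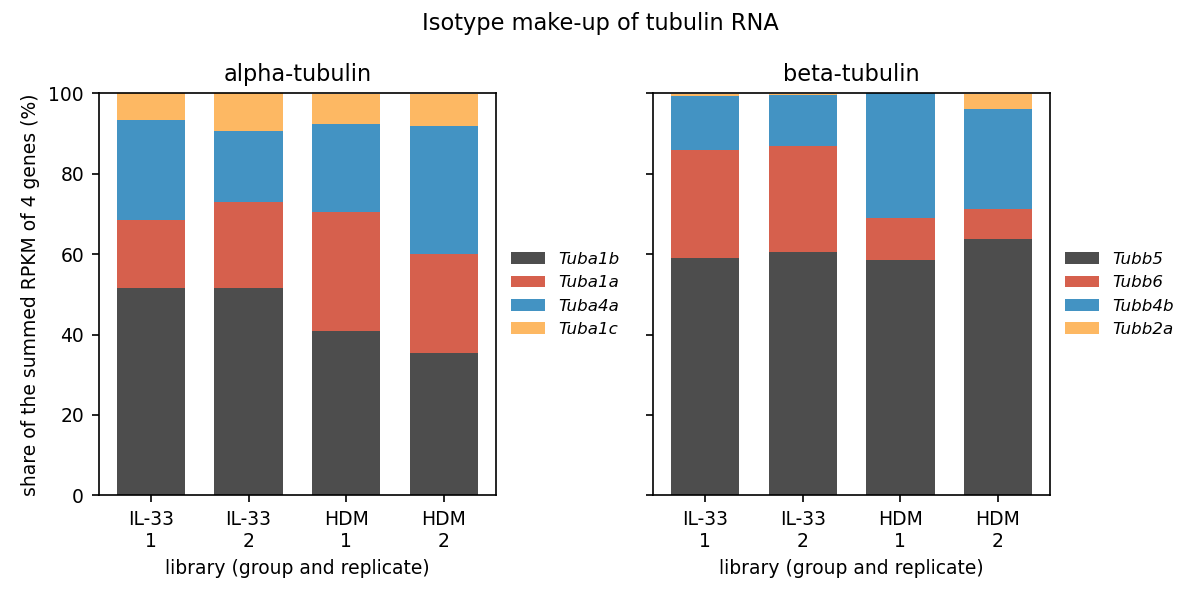
Share in percent of each gene in the summed RPKM of the 4 alpha-tubulin genes (left) and of the 4 beta-tubulin genes (right), stacked for each of the 4 libraries. *Tubb5* takes 58.6% to 63.8% of the beta sum in each library, and *Tubb6* goes from 27.0% and 26.3% with IL-33 to 10.3% and 7.49% with chronic HDM.

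In order of level with IL-33, *Stmn1* and *Tubb5* led, in either order in the 2 libraries, and *Tubb6*, *Tuba1b*, *Tubg1* and *Tubb4b* followed in that order in both. *Tuba4a* and *Tuba1a* changed places between the libraries, and *Tuba1c* and *Tubb2a* came last. With chronic HDM the order was *Tubb5*, *Tubb4b* and *Tuba1b* in both libraries, with *Tuba1a*, *Tuba4a* and *Tubb6* in places 4 to 6 in varying order. *Tubg1* and *Stmn1* stood at places 7 and 8 in both. These places use the values as deposited, and those of genes with few windows of their own depend on how shared reads were treated.

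Across the 10 genes, the log2 difference ran from -0.22 (*Tubb4b*) to 4.42 (*Stmn1*), with a median of 0.73 beside 0.28 for all 9523 genes tested. Under the test used for the whole table (limma, with calls made where adjusted p was under 0.01 and the log2 difference beyond 1), 2 of the 10 genes, *Stmn1* and *Tubb6*, were called higher with IL-33 and 0 higher with chronic HDM, where 3.34% of all genes were called. Because the genes were picked on this difference, nothing is read from that count, which became 0 without either IL-33 library and 4 and 5 without chronic HDM replicates 1 and 2. The libraries did not overlap for 7 of the 10 genes, 6 higher with IL-33 and 1 higher with chronic HDM, beside 65.2% of all genes (41.7% higher with IL-33 and 23.5% higher with chronic HDM). A log2 difference beyond 1 in either direction was found in 4 of the 10 genes and in 38.2% of all genes.

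The other scalings lowered the median of all genes by 0.21 (median of ratios), 0.25 (quantile) and 0.21 (without 45S ribosomal RNA) on the log2 scale. Relative to the median of all genes, *Stmn1* then differed by 4.12, 4.01 and 4.13, beside 4.14 with RPKM as deposited. The corresponding values of *Tubb6* were 2.13, 1.96 and 2.13 beside 2.15, and those of *Tubg1* were 1.70, 1.55 and 1.70 beside 1.72. *Tubb5* lay 0.54, 0.24 and 0.53 above that median, beside 0.56, and *Tubb4b* lay below it under each (-0.52, -0.77 and -0.52, beside -0.50). *Tuba1a* lay below it under all 4 (-0.12 as deposited).

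**Figure D4:**
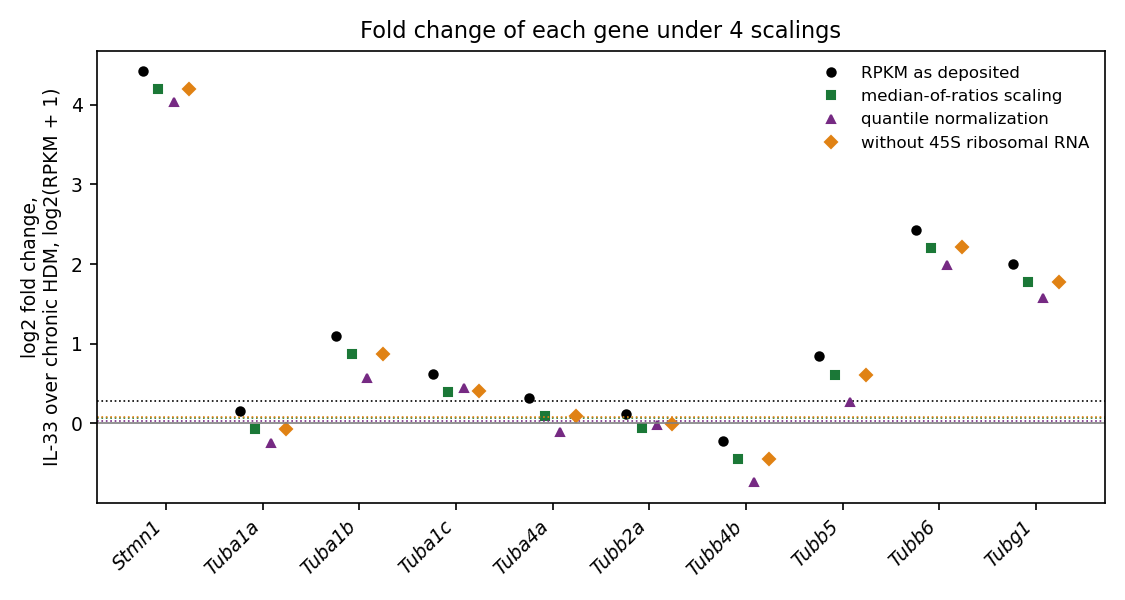
Difference in log2(RPKM + 1), IL-33 minus chronic HDM, of the 10 genes with RPKM as deposited and under 3 other scalings, where dots mark the all-gene median under each. *Stmn1*, *Tubb6* and *Tubg1* stay above 1 under all 4, *Tubb4b* stays below 0, and *Tuba1a*, *Tuba4a* and *Tubb2a* turn below 0 under at least 1.

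The rest of the tubulin family held a minor part of the RNA. The 4 alpha genes made up 96.4% and 95.2% of the summed RPKM of all alpha-tubulin genes with IL-33. With chronic HDM they made up 93.3% and 90.9%. The 4 beta genes made up 99.5% to 100% of the beta-tubulin sum over the libraries. The tables hold 17 other rows with a tubulin or stathmin symbol, of which 8 had no reads in any library and 3 reached a mean of 2 RPKM. *Tuba8* was at 7.99 and 11.5 RPKM with IL-33 and at 9.75 and 13.9 RPKM with chronic HDM. The delta-tubulin gene *Tubd1*, whose product acts at centrioles, was at 13.1 and 11.9 RPKM with IL-33 and at 22.9 and 4.47 RPKM with chronic HDM. Both overlapped between the groups. The epsilon-tubulin gene *Tube1*, also of the centriole, was at 4.56 and 7.92 RPKM with IL-33 and at 0 and 2.83 RPKM with chronic HDM. As *Tube1* averaged under 2 RPKM with chronic HDM, it reached the minimum through the IL-33 libraries alone. Its values are therefore a description. *Tubb3*, the neuronal beta-tubulin, was at 0.267 and 2.13 RPKM with IL-33 and had no reads with chronic HDM, as did *Tubb2b* (0.518 and 0.889 RPKM).

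To set these genes among the proteins that fold, nucleate, bind, cut and modify microtubules, 105 further genes were listed, and 71 of them reached a mean of 2 RPKM. Of the 71, 7 were called higher with IL-33, where 2.80% of all genes were, 0 higher with chronic HDM (0.536% of all genes) and 64 did not pass, with limma at an adjusted p under 0.01. At an unadjusted p under 0.05 from limma, 30 of the 71 were higher with IL-33 and 5 higher with chronic HDM, beside 25.5% and 11.2% of all genes. At that level limma-voom on reads recovered from the RPKM values gave 25 and 4, beside 21.9% and 10.2% of all genes, and called 0. The median log2 difference was 0.72 beside 0.28 for all genes, and 40 of the 71 genes were higher in both IL-33 libraries and 12 in both chronic HDM libraries, beside 41.7% and 23.5% of all genes. Of the 7 called genes, 6 averaged under 2 RPKM with chronic HDM, so they reached the minimum through the IL-33 libraries alone and had to differ. The 7 calls became 0 without either IL-33 library, 21 without chronic HDM replicate 1 and 24 without chronic HDM replicate 2.

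Spindle microtubule-associated proteins held 5 of these 6 genes, and the values of this group are a description. Of its 10 genes, 8 averaged under 2 RPKM with chronic HDM, 5 were called higher with IL-33 and 5 did not pass. The median log2 difference was 4.12, on a scale that understates the change of the 4 genes without any read in either chronic HDM library. *Tpx2*, which targets Aurora A kinase to the spindle, was at 39.1 and 45.3 RPKM with IL-33 and at 0 and 0.013 RPKM with chronic HDM, the latter being 1 read (log2 difference 5.42). *Nusap1*, which bundles spindle microtubules, was at 29.0 and 35.8 RPKM with IL-33 and at 0.201 and 0 RPKM with chronic HDM (log2 difference 4.92). Both had almost no RNA with chronic HDM, where *Stmn1* kept 15.2 and 15.1 RPKM.

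*Ckap2l*, another spindle protein gene, was at 28.7 and 37.2 RPKM with IL-33 with no reads with chronic HDM, a ratio of at least 645-fold if each chronic HDM library held 3 reads. *Hmmr*, encoding a hyaluronan receptor that also acts at spindle poles, was at 15.3 and 20.4 RPKM with IL-33 with no reads with chronic HDM, a ratio of at least 436-fold. The other called gene of this group was *Dlgap5*, which stabilises kinetochore fibres, at 14.0 and 16.1 RPKM and again no reads with chronic HDM. The genes of this group that did not pass include *Prc1*, a bundler of the midzone (20.3-fold higher with IL-33), *Ckap2* (10.4-fold higher) and *Numa1*, which acts at spindle poles and was 1.34-fold higher with chronic HDM.

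Outside the spindle group, 2 genes were called. *Fignl1*, of the fidgetin family of AAA ATPases, was at 29.1 and 34.2 RPKM with IL-33 with no reads with chronic HDM (a ratio of at least 563-fold), 1 of 4 severing genes. As *Fignl1* reached the minimum through the IL-33 libraries alone, its values are a description. *Clasp2*, which stabilises microtubule plus ends, was at 67.1 and 60.5 RPKM with IL-33 and at 14.3 and 11.7 RPKM with chronic HDM (log2 difference 2.21 with a standard error of 0.27 and limma adjusted p = 0.00930), 1 of 12 plus-end and lattice-binding genes. The medians of these groups were 1.58 and 0.43. *Clasp2* was not called under median-of-ratios scaling (limma adjusted p = 0.0135), quantile normalization (0.0156) or without 45S ribosomal RNA (0.0137). Nor was it called with limma-voom (0.0195), without the intensity trend (0.0263), at a pseudocount of 0.1 (0.0161) or with every gene kept (0.0335). It was called at a pseudocount of 2, a minimum of 5 RPKM, with robust variances and with a replicate block. The log2 difference ran from 1.88 to 2.29 over these settings.

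Genes of the complexes in which *Tubg1* acts went both ways. Of 17 genes of the gamma-tubulin ring and the augmin complex, which branches new microtubules from old ones, 0 were called by limma (6 higher with IL-33 and 1 lower at an unadjusted p under 0.05, and 4 and 1 with limma-voom). The augmin gene *Haus7* was at 54.9 and 68.5 RPKM with IL-33 and at 26.2 and 15.0 RPKM with chronic HDM (limma adjusted p = 0.0321). *Haus4* was at 50.4 and 69.7 RPKM with IL-33 and at 17.2 and 25.6 RPKM with chronic HDM (limma adjusted p = 0.0328). The ring subunit *Tubgcp6* lay the other way, at 1.99 and 3.88 RPKM with IL-33 and at 10.03 and 11.2 RPKM with chronic HDM (limma adjusted p = 0.0596). The group's median log2 difference was 0.34 beside 0.28 for all genes, and its shares at an unadjusted p under 0.05 (6 and 1 of 17) stand beside 25.5% and 11.2% of all genes.

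Tubulin folding genes include prefoldin, which hands nascent tubulin to the chaperonin, and the cofactors that assemble the dimer. Of 12 tested, 0 were called by limma (4 higher with IL-33 and 1 lower at an unadjusted p under 0.05, 3 and 1 with limma-voom, to be read against the same all-gene shares), with a median of 0.66. *Pfdn5*, a prefoldin subunit, was at 162 and 126 RPKM with IL-33 and at 151 and 193 RPKM with chronic HDM. *Tbcb*, a cofactor for alpha-tubulin, was at 117 and 121 RPKM with IL-33 and at 60.5 and 73.0 RPKM with chronic HDM (limma adjusted p = 0.0437). *Tbca*, a cofactor for beta-tubulin, lay the other way, at 44.1 and 48.7 RPKM with IL-33 and at 115 and 124 RPKM with chronic HDM (limma adjusted p = 0.0135). *Pfdn5* overlapped between the groups, and *Tbcb* and *Tbca* did not.

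Enzymes that add or remove tyrosine, glutamate or acetyl groups on tubulin had a median of -0.17, with 0 of 13 called by limma (4 higher with IL-33 and 2 lower at an unadjusted p under 0.05, 4 and 1 with limma-voom, where all-gene shares are again 25.5% and 11.2%, and 21.9% and 10.2%). *Sirt2*, a deacetylase that acts on alpha-tubulin, was at 133 and 129.8 RPKM with IL-33 and at 69.7 and 90.0 RPKM with chronic HDM (limma adjusted p = 0.0693). *Tpgs1*, a subunit of the polyglutamylase complex, was at 99.7 and 107 RPKM with IL-33 and at 34.2 and 28.9 RPKM with chronic HDM (limma adjusted p = 0.0109). Both were higher in each IL-33 library, and neither passed the threshold. Of the 13, 5 were higher in both IL-33 libraries and 5 in both chronic HDM libraries, beside 41.7% and 23.5% of all genes.

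**Figure D5:**
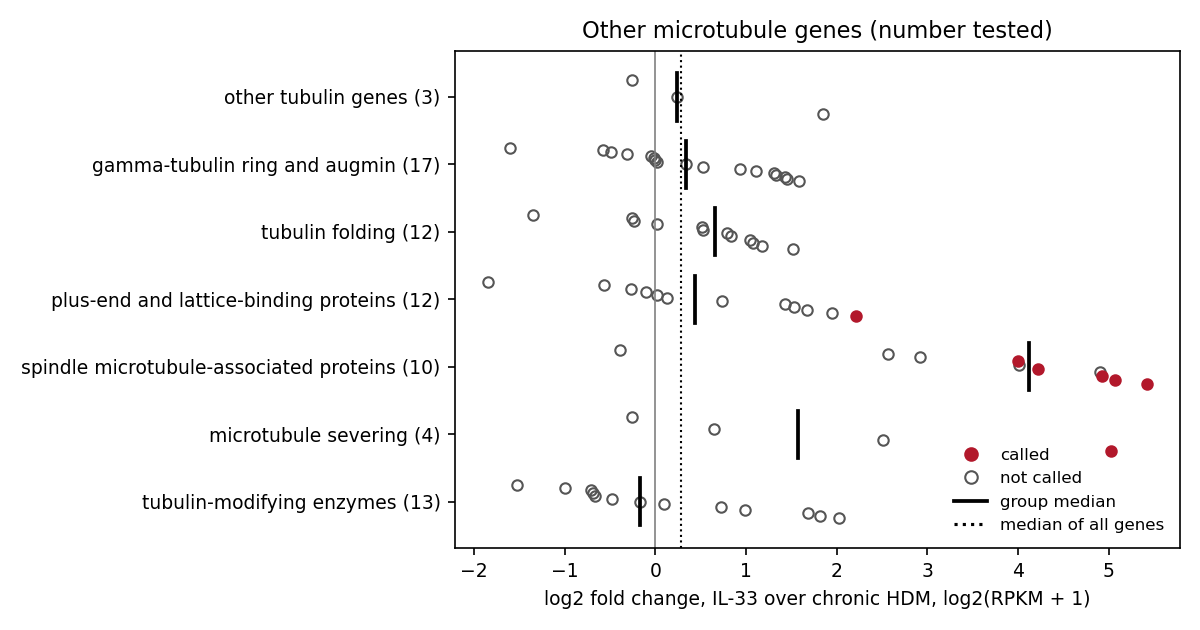
Difference in log2(RPKM + 1), IL-33 minus chronic HDM, of the 71 tested genes in 7 groups of microtubule genes, filled where called, with a bar at each group's median and the all-gene median (0.28) dotted. The spindle group has the highest median (4.12) and holds 5 of the 7 called genes, and the tubulin-modifying enzymes have the lowest median (-0.17).

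The genes whose pattern over the 4 libraries was closest to that of *Stmn1* were *Cdkn3*, *Ncapg*, *Kif2c*, *Ldoc1* and *Gstt1*, among 5654 other genes that averaged 10 RPKM or more. Likeness was measured as the root mean square difference of log2(RPKM + 1) values centred on each gene's mean, which was 0.0483 for *Cdkn3* and up to 0.0875 for *Gstt1*. *Cdkn3*, a phosphatase of cyclin-dependent kinases, was at 20.4 and 21.5 RPKM with IL-33 with no reads with chronic HDM, and *Ncapg*, a condensin subunit, was at 21.6 and 22.5 against 0.028 and 0.118 RPKM. Their levels were thus far below that of *Stmn1*, and the likeness is of differences on the log2(RPKM + 1) scale alone. Closest to *Tubb5* were *Celf2* (0.0118), *Ntan1*, *Pdf*, *Tbcb* and *Ppp2r2a* (0.0389). *Celf2*, which encodes an RNA-binding protein, was at 26.6 and 29.3 RPKM with IL-33 and at 14.0 and 15.9 RPKM with chronic HDM, and *Tbcb* is the folding cofactor described above. With 4 libraries in 2 groups, such likeness rests on few points.

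Promoter windows of 300 bases, 250 before to 50 after the start site, were given by RefSeq (GRCm38.p6) for 7 of the 10 genes, and 7 short motifs were searched on both strands. CCAAT occurred 5 times in the *Tubb4b* window, 2 times in that of *Tubb5*, and once in those of *Tuba1a* and *Tuba1c*, while 37.4% of all 32851 windows hold it at least once. GGGCGG was found in the windows of 6 of the genes but not that of *Tuba1c* (35.7% of all windows), TATAAA in those of *Tubb2a* and *Tubb4b* (13.6%), and TTCGAA (1.56%), TTCCCGC (4.60%) and TTGGCGC (2.45%) in none of the 7. TTTGAA (17.9% of all windows) was found once, in *Tubb4b*, in the stretch printed here with this motif in capitals and a CCAAT just after it.
Tubb4b (chr2:25224882-25224911, minus strand): caaatcaatcaTTTGAAacacccaatggat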

How the data were processed

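Smart-seq2 libraries, made by PCR of whole cDNA with no molecular identifiers, were read from one end for 51 bases. The authors used HISAT2 (version 2.0.4, per the submitters' processing notes) with the mm10 genome. They deposited HOMER RPKM values, per the file headers counted over exons of 1 RefSeq transcript per gene from libraries normalized to 10000000 reads. The tag directories are named unique, and how reads that fit several genes were treated is not given in the sources used here. The authors ran DESeq2 for their own comparison; no column of it was used. RPKM times exon length gave whole reads, within 0.1, for 98.2% to 99.9% of values above 0, and from these the depths. Floors of 3 reads cover counting error only.

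Groups came from the sample titles. The 10 genes and the lists were chosen with earlier results of these data known. Of 24537 genes, the 9523 with a mean of at least 2 RPKM were fitted as log2(RPKM + 1) with limma 3.58.1 in R 4.3.3 (intensity trend, two-sided, Benjamini-Hochberg adjustment) and called where adjusted p was under 0.01 and the log2 difference beyond 1, which are the paper's thresholds. The fit was tested on simulated data. Named besides the 10 genes were, per group of the microtubule list, at most 4 called genes of largest change or, where no gene was called, the 2 of highest mean, and the 5 genes most like *Stmn1* and *Tubb5*; *Dlgap5*, *Tube1*, *Prc1*, *Ckap2*, *Numa1*, *Tubgcp6*, *Tbca*, *Tubg2*, *Tubb3*, *Tubb2b* and the other stathmin genes were named after their values were seen. Marker lists covered ILC2s, macrophages and monocytes, dendritic cells, B cells, T cells, eosinophils, neutrophils, basophils and mast cells, and epithelium. Over the 4 libraries (IL-33 1 and 2, chronic HDM 1 and 2) their sums were 245, 243, 21.5 and 21.3 RPKM for dendritic cells, of which *Ccr7* was 211, 208, 8.42 and 6.06, and 39.1, 27.8, 8.74 and 6.82 for B cells, with *Ms4a1* and *Pax5* at 0. T cell markers summed to 77.0, 102, 71.2 and 83.3 RPKM, with *Cd4*, *Cd8a* and *Cd5* at 0, eosinophil markers to 22.8, 6.42, 63.3 and 46.1, and neutrophil markers to 0.395, 0, 14.1 and 6.46. Basophil and mast cell markers summed to 52.2, 43.1, 0 and 2.87 RPKM, and epithelial markers to 14.5, 5.52, 25.7 and 76.0. The part of such cells in the results was not tested. A few items withheld from the text are not reported here. Transcripts and coordinates came from GENCODE M21 (GRCm38), limited to the span of each gene in the tables. Identity was computed with Biopython 1.88, and figures were drawn with matplotlib 3.10.9.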

Additional observations from a re-analysis of the deposited data

How the results depend on the processing

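Which genes were called depended strongly on the settings, while the folds of *Stmn1* (log2 4.03 to 4.50), *Tubb6* (1.99 to 2.62) and *Tubg1* (1.58 to 2.25) moved little over the alternatives run, and those of *Tubb2a* (-1.75 to 2.66) moved most. With 2 libraries a group, a two-sided exact permutation test of 1 gene could not pass the threshold, and depth and shared windows limit *Tubb2a* and the alpha genes of chromosome 15. Against 267 genes called higher after IL-33 and 51 after chronic HDM, none were called by limma-voom, by limma without the intensity trend, at a pseudocount of 0.1 or when every gene was kept (0 and 0 each), 502 and 107 with a minimum of 5 RPKM, and 1311 and 455 at an adjusted p under 0.05. Median-of-ratios scaling called 85 and 40 (68.0% higher after IL-33, in place of 84.0%), quantile normalization 82 and 62 (56.9%), and rescaling without 45S ribosomal RNA 84 and 38 (68.9%). Leaving out 1 library gave 0 to 1872 and 0 to 598, with 0 and 0 without either IL-33 library and 1556 and 385 without chronic HDM replicate 1; the lone library was then assumed to vary like the other group. Of the 10 genes, the 2 called became 0 to 5.

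Of the microtubule list, 7 genes were called higher after IL-33 and 0 after chronic HDM. The first count became 0 in those same 4 settings, 4, 3 and 4 under the 3 scalings, and 18 at an adjusted p under 0.05, and the second became 1 at that threshold or with a minimum of 5 RPKM. Without 1 library they ran from 0 to 24 (0 without either IL-33 library, 21 and 24 without chronic HDM replicate 1 or 2) and from 0 to 2. The median log2 fold change of the 10 genes, 0.73, became 0.98 (pseudocount 0.1), 0.84 (minimum of 5 RPKM), 0.50 (median of ratios), 0.36 (quantile), 0.51 (without 45S ribosomal RNA) and 0.86 (limma-voom), and 0.64 to 0.98 without 1 library. *Tubd1* went from 0.24 to -0.82 without chronic HDM replicate 2 and to 1.30 without chronic HDM replicate 1. The cause of these changes was not tested.

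Replicate numbers were shared between the groups, and deviations from the group means correlated at r = -0.0385 between same-numbered libraries (2 pairs, across genes). With so few pairs, this cannot tell whether same-numbered libraries were handled together. The main fit did not pair them. The replicate block called 987 and 267 genes, and 16 and 1 of the microtubule list.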
